A study of Homo sapiens with 6 samples.

Results

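The 34 genes described here are the transcription factor NRF2 (gene NFE2L2), its relative NFE2L1, its inhibitor KEAP1, the target OSGIN1, the heme transporter SLC48A1 and enzymes that detoxify reactive oxygen species, peroxides, quinones and aldehydes. They were listed by symbol, each matched 1 Ensembl gene identifier of the count files, and all 34 were among the 15025 genes tested. They were measured by RNA sequencing of total RNA from HepG2, an established human hepatocellular carcinoma cell line, grown in RPMI-1640 with serum. The cells were transfected with a control siRNA (3 libraries) or with an siRNA against FTO (3 libraries), an enzyme known for demethylating N6-methyladenosine in RNA, and the series asked which genes FTO regulates in this cancer. No other treatment or genotype is given in the labels, and they do not say that replicates were separate cultures, so p-values measure the spread between these libraries, which may be technical.

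NRF2 is a transcription factor that KEAP1, an adaptor of a ubiquitin ligase, marks for degradation. Oxidants and electrophiles modify KEAP1, NRF2 then accumulates, pairs with small MAF proteins and binds the antioxidant response element of its target genes. In liver these targets make glutathione, recycle thioredoxin and reduce quinones and aldehydes, and next to them work the superoxide dismutases, catalase, glutathione peroxidases and peroxiredoxins, not all of which are NRF2 targets.

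Total counts lay between 15713279 and 18390953 per library, where 3 counts are 0.163 to 0.191 CPM, which are counts scaled to a common library size. FTO was at 40.8, 37.96 and 38.8 CPM in controls 1, 2 and 3 and at 11.2, 14.5 and 5.21 CPM in FTO siRNA 1, 2 and 3 (log2 fold change -1.93 ± 0.32, edgeR quasi-likelihood test, adjusted p = 0.00932). Of 14 hepatocyte markers none was at 0 in all controls, and their summed level was 24075 to 34512 CPM in controls and 16758 to 29684 CPM with FTO siRNA, with none called. Of 20 immune cell markers 13 were tested and 7 were called higher, where 7.53% of all genes tested were called higher and 3.83% lower. Without LYZ and LCP1, which exceed 40 CPM in every control (set aside after the data were seen), the sum of the other 18 was 5.97 to 7.49 CPM in controls, with 2 of them at 0 in every control, and 27.3 to 38.2 CPM with FTO siRNA. Of 13 fibroblast markers 7 were tested and 3 called higher (summed level 117 to 204 CPM in controls, with 5 markers at 0 in all of them, and 278 to 615 CPM with FTO siRNA). Of 8 markers of cervical and kidney lines 2 were called higher and 1 lower, and of 7 endothelial markers, 4 of them at 0 in all controls, 1 was tested and not called. The part of these other transcripts in the results below was not tested, and in bulk RNA fewer cells of a type and less RNA per cell cannot be told apart.

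The core of the antioxidant response element, TGACNNNGC, was searched on both strands in the 250 bases before each annotated start of transcription (RefSeq, GRCh38.p14). Promoters were matched for 28 of the 34 genes (all but GSR, TXN2, PRDX1, PRDX6, SOD1 and AKR1B10), with 41 starts in all. The core stood before 5 of these 41 starts, 12.2%, against 3830 of 35116 starts of all genes, 10.9%. The 6 matches belonged to GCLM, TXNRD1, GPX2 and KEAP1. They are printed because these genes cover synthesis of glutathione, thioredoxin reduction, peroxide removal and control of NRF2 itself, on the strand of the gene, 5′ to 3′, with the core in capitals. None of them holds TGACTCA, the AP-1 element that can overlap the core, and 5 of the 6 lie in bases that GENCODE 29 also counts as exon of some transcript.
GCLM (chr1:93909446-93909474, minus strand): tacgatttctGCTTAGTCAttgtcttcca
TXNRD1, upstream start (chr12:104215670-104215698, plus strand): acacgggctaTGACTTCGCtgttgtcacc
TXNRD1, downstream start (chr12:104286920-104286948, plus strand): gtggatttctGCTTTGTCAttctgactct
GPX2 (chr14:64942849-64942877, minus strand): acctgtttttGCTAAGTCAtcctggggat
KEAP1, farther match (chr19:10502807-10502835, minus strand): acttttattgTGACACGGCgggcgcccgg
KEAP1, nearer match (chr19:10502784-10502812, minus strand): gcccggctctGCTTAGTCAtggtgacctg
The first base of each core is 34 bases before the start for GCLM, 99 and 102 for the upstream and downstream starts of TXNRD1, 122 for GPX2, and 54 and 31 for KEAP1. A match is a description of these letters, and elements farther upstream were not searched.

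With all 6 libraries, SOD2, AKR1B10 and GPX8 rose after FTO siRNA and 31 of the 34 genes did not pass the test; none fell. The 3 that rose are 8.82% of the genes, and 7.53% of the 15025 genes tested over the whole table rose. No gene of the set passed as lower with edgeR, DESeq2 or limma-voom, none reached an unadjusted p under 0.05 in that direction in these fits, and 3.83% of all genes tested fell. In the edgeR fit with trends on transcript length and GC content removed, 3 genes reached that unadjusted p as lower, and none passed. All 34 genes passed the filter on low counts. The log2 fold change was above 0 for 26 of them and below 0 for 8, with a median of 0.29 against 0.04 over all genes tested. This median came to 0.11 without FTO siRNA 1 and to 0.11 with trends on transcript length and GC content removed. The 3 FTO siRNA values lay above all 3 control values for 9 genes, 26.5%, against 19.2% of all genes tested, and below them for 1 gene, 2.94%, against 17.4%.

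**Figure D1:**
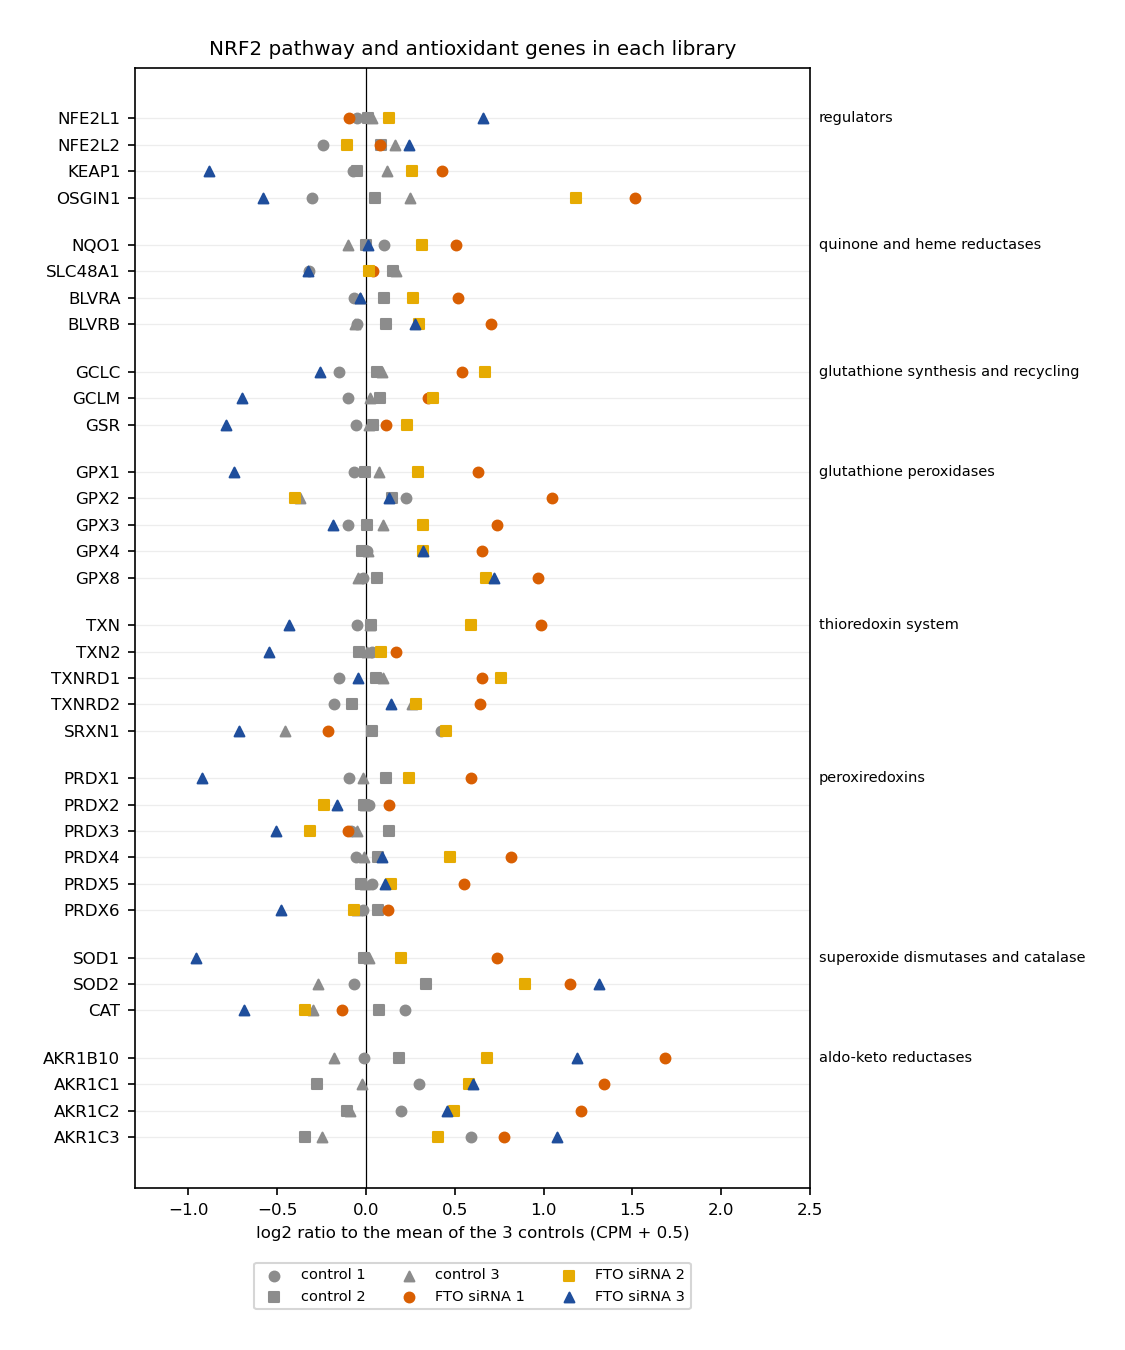
Each row is 1 gene and each point 1 library, as the log2 ratio of its CPM + 0.5 to the mean of the 3 controls (grey); coloured points are FTO siRNA 1, 2 and 3. FTO siRNA 1 is the highest of the 6 libraries for 22 of the 34 genes and FTO siRNA 3 the lowest for 16, while SOD2, AKR1B10 and GPX8 lie above the controls in all 3.

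The FTO siRNA libraries did not move together. For 24 of the 34 genes FTO siRNA 1 and 2 were both above every control, where 31.4% of all genes tested were. For 11 of these, 32.4% of the set, FTO siRNA 3 was at the same time below every control, a pattern of 8.03% of all genes tested. FTO siRNA 3 was the lowest of the 6 libraries for 16 genes (47.1%, against 28.1% of all genes tested) and the highest for 4 (29.9% of all genes tested). The median log2 ratio of the 34 genes to the control mean was 0.61 in FTO siRNA 1, 0.30 in FTO siRNA 2 and -0.11 in FTO siRNA 3, and the same median over all genes tested was 0.04, 0.01 and 0.02. FTO itself was lowest in FTO siRNA 3. The summed fibroblast markers were at 615, 426 and 278 CPM in FTO siRNA 1, 2 and 3, an order that TAGLN alone carries (464, 284 and 90.03 CPM): the other 12 summed to 151, 142 and 188 CPM, highest in FTO siRNA 3. The immune cell markers without LYZ and LCP1 were at 38.2, 27.6 and 27.3 CPM, and the part of either list was not tested. These counts were chosen after the values were seen.

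Fitted without FTO siRNA 3, 18 of the 34 genes passed as higher, 52.9%, where 15.9% of all genes tested did, and none passed as lower, where 14.1% did. All 3 genes called with 6 libraries were among the 18. FTO siRNA 3 is the library in which 16 of the 34 genes were lowest, so a surplus of higher calls without it is partly built in. It is no separate support for a rise of the set. Without FTO siRNA 1 instead, 1 of the 34 genes passed as higher, where 751 of the 15454 genes tested did. The median log2 fold change of the 34 genes without FTO siRNA 3 was 0.44, against -0.00348 over all genes tested. Without FTO siRNA 3 and with trends on transcript length and GC content removed, 12 passed as higher (35.3%, background 14.6%), all among the 18. In that same fit PRDX2 and PRDX3 passed as lower (background 12%). With the trends removed from all 6 libraries, SOD2, AKR1B10 and GPX8 again passed as higher (background 6.69%) and none passed as lower (background 3.82%). Of the 15 genes that passed as higher without FTO siRNA 3 and not with 6 libraries, BLVRB, GPX4, PRDX4, AKR1C1 and AKR1C2 kept all FTO siRNA values above all controls with FTO siRNA 3 included, and the groups of the other 10 overlapped.

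**Figure D2:**
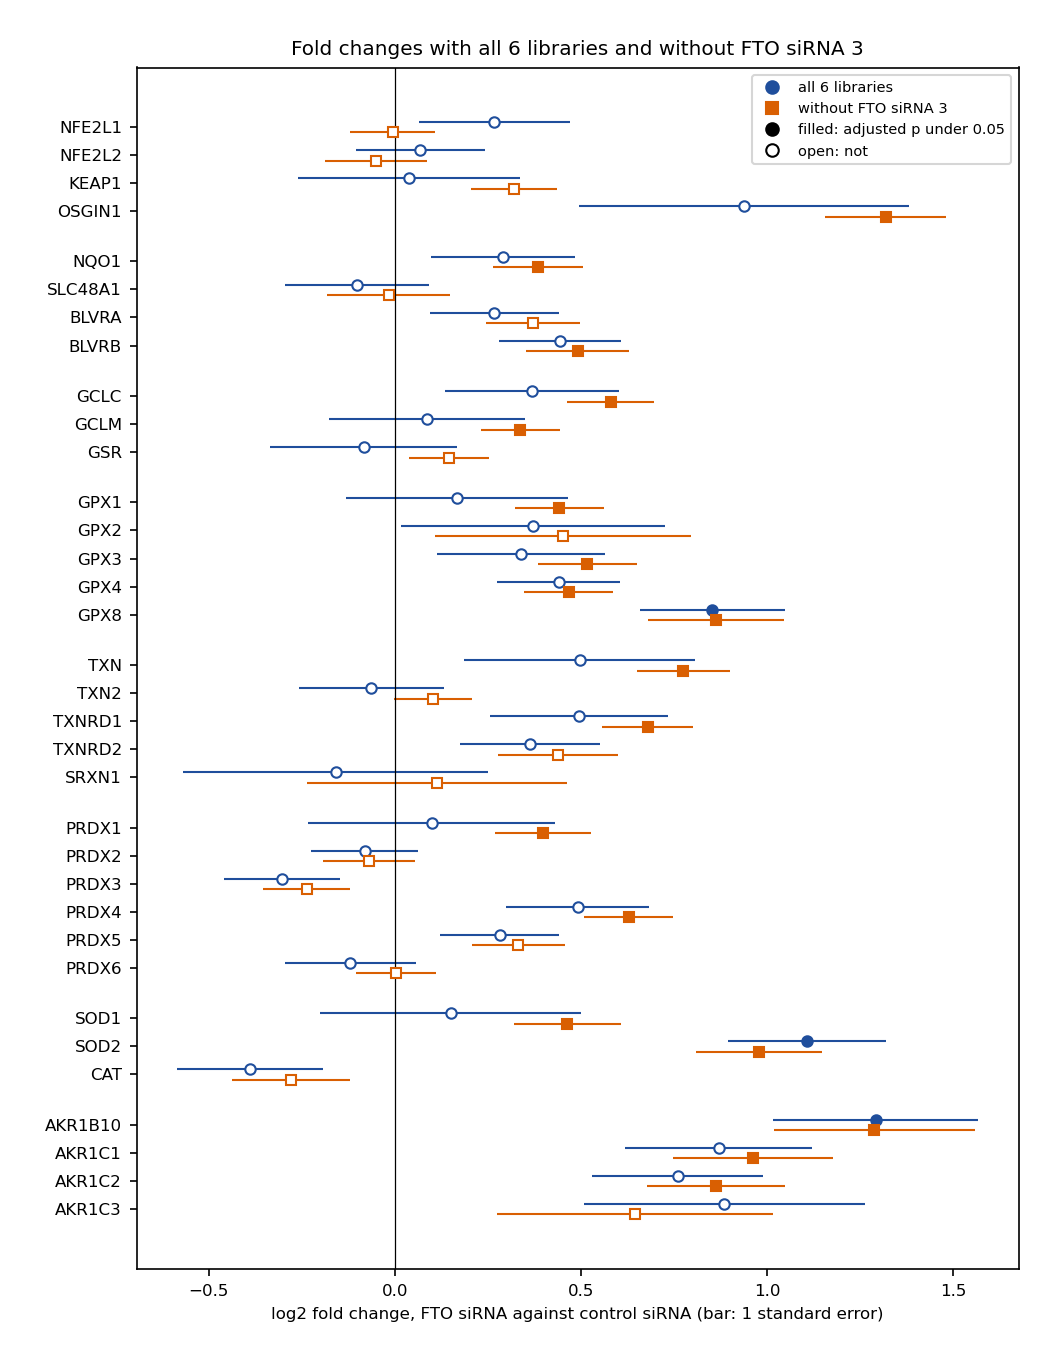
Log2 fold change of each gene, FTO siRNA against control siRNA, with 1 standard error, from all 6 libraries (circles) and without FTO siRNA 3 (squares); filled symbols have an adjusted p under 0.05. With all libraries 3 circles are filled, and without FTO siRNA 3 there are 18 filled squares, all to the right of 0. FTO siRNA 3 is the library in which many of these genes were lowest, so a shift to the right without it is partly built in.

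Transcript length moved with the libraries too. All genes tested were put into 4 classes of equal size by their longest transcript, and the class with the shortest (62 to 2080 bases) had a median log2 ratio to the control mean of 0.31 in FTO siRNA 1, 0.12 in FTO siRNA 2 and 0.03 in FTO siRNA 3. The class with the longest (5162 bases and more) had -0.33, -0.12 and -0.01. Of the 34 genes, 16 were in the shortest class, with medians of 0.68, 0.28 and -0.10. The 10 genes of the next class had 0.09, 0.24 and -0.54, against 0.17, 0.07 and 0.04 for all genes of that length. The 6 genes of the class after it had 0.60, 0.58 and 0.20, against -0.02, 0.01 and 0.02. In FTO siRNA 1 the listed genes thus lay above all genes of their length in the shortest and the third class and below them in the second. In FTO siRNA 2 they lay above in these 3 classes, and in FTO siRNA 3 below in the shortest and second and above in the third. The longest class held only 2 of the 34 genes, SOD2 and AKR1C1. Their medians were 1.25, 0.74 and 0.96 in FTO siRNA 1, 2 and 3, above those of all genes of that length.

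**Figure D3:**
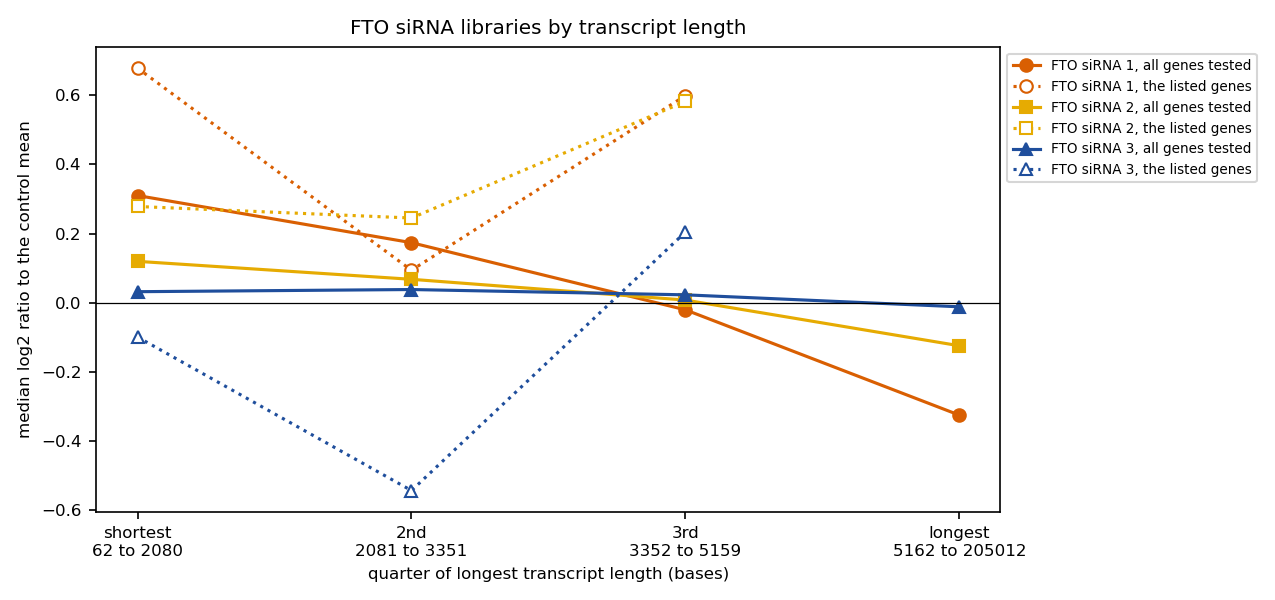
Median log2 ratio to the control mean in FTO siRNA 1, 2 and 3 by class of longest transcript length, for all genes tested (filled, solid) and for the listed genes where a class holds at least 6 of them (open, dotted). Over all genes FTO siRNA 1 goes from 0.31 in the shortest class to -0.33 in the longest, and FTO siRNA 3 stays between 0.04 and -0.01.

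The superoxide dismutases turn superoxide into hydrogen peroxide, SOD1 in the cytosol and SOD2 in the mitochondrial matrix, and catalase (CAT) breaks hydrogen peroxide down in peroxisomes. SOD2 (ENSG00000112096.15, chromosome 6) was at 406, 539.7 and 353 CPM in controls 1, 2 and 3 and 945, 795 and 1059.9 CPM in FTO siRNA 1, 2 and 3. All FTO siRNA values were above all controls, FTO siRNA 3 being the highest. It rose by 1.11 ± 0.21 on the log2 scale, 2.15-fold (edgeR quasi-likelihood test, adjusted p = 0.015), by 0.98 ± 0.17 without FTO siRNA 3, and by 1.61 there with the length and GC trends removed. That removal used the longest annotated transcript of each gene, 14266 bases for SOD2. This need not be the transcript expressed, so the larger value depends on that choice. The call was lost without control 1 or control 3 (adjusted p = 0.0997 and 0.0765). SOD2 shares 298 exon bases with WTAP on the opposite strand, a gene with 2045 to 2799 counts per library, and 845 with a second GENCODE 29 gene of the same symbol on its own strand; since counting settings are not given, reads of that stretch cannot be told apart.

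SOD1 was at 247, 246 and 250.2 CPM in the controls and at 413, 284 and 127 CPM in FTO siRNA 1, 2 and 3. The controls lay within a few CPM of each other, while FTO siRNA 1 was far above and FTO siRNA 3 far below them. The log2 fold change was 0.15 ± 0.35 (adjusted p = 0.82; 0.46 ± 0.14, adjusted p = 0.0364, without FTO siRNA 3, and not called once length and GC trends were also removed). CAT was at 72.5, 65.6 and 50.5 CPM in the controls and at 56.6, 48.98 and 38.4 CPM after FTO siRNA, overlapping groups with the lowest value in FTO siRNA 3. Its log2 fold change of -0.39 ± 0.20 did not pass (adjusted p = 0.237; 0.206 without FTO siRNA 3).

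**Figure D4:**
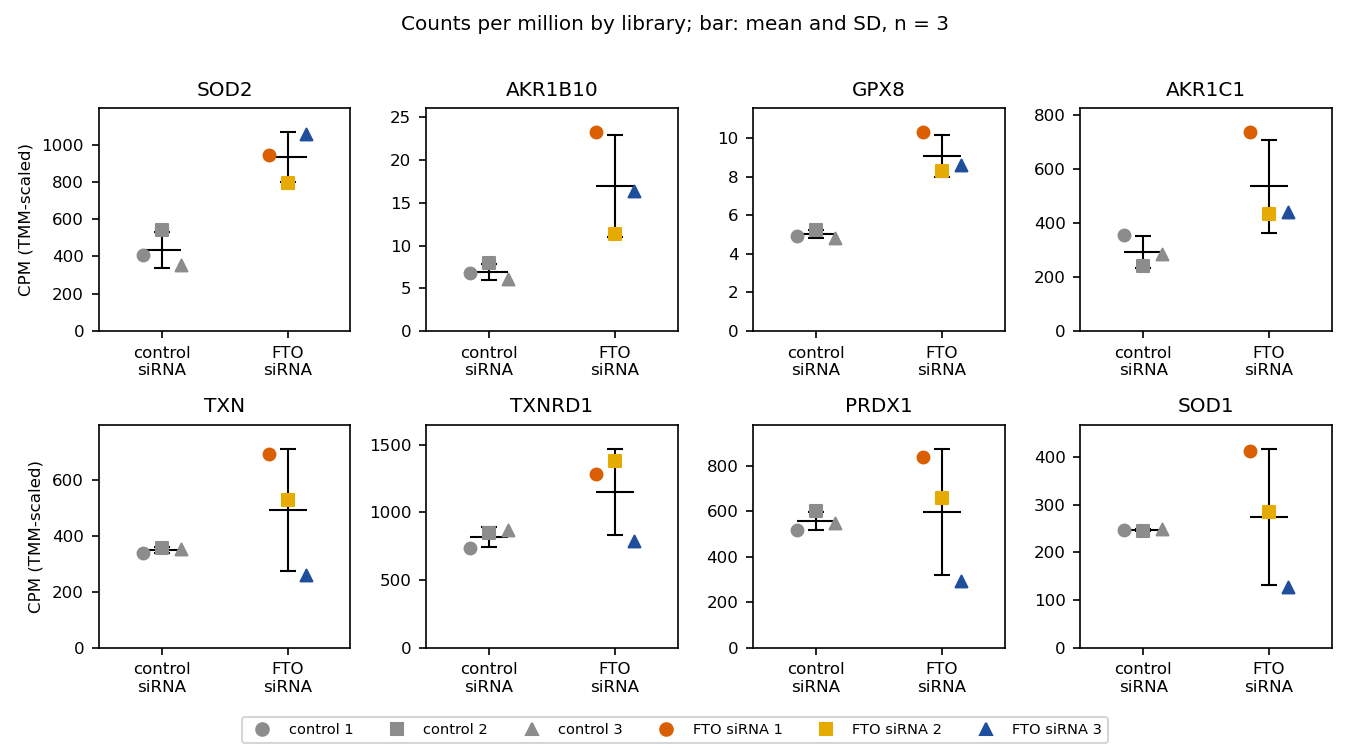
TMM-scaled CPM of 8 genes in each library, with mean and SD (n = 3) per group; every axis starts at 0. SOD2, AKR1B10, GPX8 and AKR1C1 have all FTO siRNA values above all controls, while TXN, PRDX1 and SOD1 have FTO siRNA 1 and 2 above and FTO siRNA 3 below the controls, and TXNRD1 has FTO siRNA 3 among the controls.

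The aldo-keto reductases reduce aldehydes and ketones with NADPH, AKR1B10 acting on lipid aldehydes and retinal and the AKR1C enzymes on steroids as well. All 4 log2 fold changes were above 0, and 1 passed. AKR1B10 (ENSG00000198074.8, chromosome 7) was at 6.84, 7.92 and 6.04 CPM in controls 1, 2 and 3 and 23.2, 11.4 and 16.4 CPM in FTO siRNA 1, 2 and 3. The groups were apart, with FTO siRNA 2 the nearest to the controls. It rose by 1.29 ± 0.28 on the log2 scale, 2.45-fold, the largest change of the 34 genes in this fit (adjusted p = 0.0219). The call was lost without any 1 control or without FTO siRNA 1 (highest adjusted p 0.101), and in each of these fits the log2 fold change lay between 0.99 and 1.39. Of its 50-base words 17.4% also occur in other genes, most in AKR1B15, which had 2 counts in all controls together and 13 in the FTO siRNA libraries.

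AKR1C1 was at 357, 239 and 285 CPM in controls 1, 2 and 3 and 736, 433 and 442 CPM in FTO siRNA 1, 2 and 3. AKR1C2 was at 296, 239.9 and 243 CPM in the controls and at 600.2, 365 and 355 CPM after FTO siRNA. In both genes all FTO siRNA values were above all controls and FTO siRNA 1 was by far the highest. Their log2 fold changes of 0.87 ± 0.25 and 0.76 ± 0.23 missed the threshold (adjusted p = 0.0598 and 0.068). DESeq2 called both (adjusted p = 0.0164 and 0.0322), as did the fit without FTO siRNA 3 (0.0102 and 0.00862). AKR1C3 was low, at 2.66, 1.16 and 1.27 CPM in the controls and 3.099, 2.29 and 3.93 CPM after FTO siRNA, and did not pass (log2 fold change 0.89 ± 0.38, adjusted p = 0.168).

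The AKR1C genes are near copies, which limits how far their counts can be told apart. Their first 75 coding bases (longest reading frame of the GENCODE 29 transcripts) are printed to show this, with the positions at which the 3 genes differ in capitals.
AKR1C1: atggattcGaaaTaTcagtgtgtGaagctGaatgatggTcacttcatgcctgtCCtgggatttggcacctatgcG
AKR1C2: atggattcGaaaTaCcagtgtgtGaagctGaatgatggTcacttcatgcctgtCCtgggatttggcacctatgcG
AKR1C3: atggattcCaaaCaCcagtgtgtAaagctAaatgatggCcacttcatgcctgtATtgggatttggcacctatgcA
Over the whole frame of 972 bases, AKR1C1 and AKR1C2 were 98.05% identical, with 189 identical bases in a row at most, and AKR1C3 was 91.5% identical to AKR1C1 and 91.05% to AKR1C2. Of the 50-base words of their longest transcripts 28.7% (AKR1C1), 52.2% (AKR1C2) and 12.1% (AKR1C3) occur in another gene. Added into 1 row, the 3 genes had 656, 480.4 and 529.9 CPM in the controls and 1340, 801 and 800.1 CPM after FTO siRNA. The log2 fold change of this sum was 0.82 ± 0.25 and did not pass (adjusted p = 0.0699).

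Glutathione peroxidases reduce peroxides with glutathione. GPX4 acts on lipid peroxides in membranes and holds back ferroptosis, GPX1 is the main cytosolic form, GPX3 is secreted, GPX2 belongs to epithelia of the gut, and GPX8 is a membrane protein of the endoplasmic reticulum. All 5 log2 fold changes were above 0, with a median of 0.37, and GPX8 passed. GPX8 (ENSG00000164294.12, chromosome 5) was at 4.94, 5.24 and 4.83 CPM in controls 1, 2 and 3 and 10.3, 8.28 and 8.58 CPM in FTO siRNA 1, 2 and 3. The controls were close together and every FTO siRNA value was well above the highest of them. It rose by 0.85 ± 0.20 on the log2 scale, 1.81-fold (adjusted p = 0.0281). The call was lost without any 1 control or without FTO siRNA 1 (highest adjusted p 0.142), and with the replicate number as a block (0.0853).

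GPX4 was at 525, 516 and 528 CPM in the controls and 822, 652 and 653 CPM after FTO siRNA, so that all FTO siRNA values were above all controls. Its log2 fold change of 0.44 ± 0.17 (95% interval 0.06 to 0.82) did not pass (adjusted p = 0.126), and passed without FTO siRNA 3 (0.47 ± 0.12, adjusted p = 0.0179) but not with the trends removed too. GPX1 was at 196, 205 and 216 CPM in the controls and 318, 252 and 123 CPM after FTO siRNA, and GPX3 at 204, 219.5 and 234 CPM and 366, 274 and 192 CPM. In both genes FTO siRNA 1 was the highest and FTO siRNA 3 the lowest library. Neither passed with 6 libraries (adjusted p = 0.76 and 0.366) and both did without FTO siRNA 3 (0.0222 and 0.0178), again not with the trends removed. GPX1 shares 21.5% of its words, mostly with the pseudogene GPX1P1, which had 20 counts in the controls together and 24 after FTO siRNA. GPX2, at 20.6, 19.4 and 13.5 CPM and 36.8, 13.2 and 19.3 CPM, did not pass in either fit (adjusted p = 0.54 and 0.344).

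The thioredoxin system carries electrons from NADPH through the selenoprotein reductases TXNRD1 (cytosol) and TXNRD2 (mitochondria) to thioredoxins TXN and TXN2, which regenerate peroxiredoxins; SRXN1 repairs overoxidised peroxiredoxins. None of the 5 genes passed with 6 libraries (lowest adjusted p 0.217). TXN was at 337, 355 and 354 CPM in the controls and at 691, 526 and 258 CPM in FTO siRNA 1, 2 and 3. The first pair of FTO siRNA libraries was well above the narrow range of the controls and the last below it. The log2 fold change was 0.50 ± 0.31 with 6 libraries (adjusted p = 0.334) and 0.78 ± 0.13 without FTO siRNA 3 (adjusted p = 0.0027). TXNRD1 was at 736, 848 and 872 CPM and 1287, 1383 and 791 CPM, with FTO siRNA 3 inside the range of the controls, and came to 0.49 ± 0.24 (adjusted p = 0.217) and 0.68 ± 0.12 without that library (adjusted p = 0.00432). TXN and TXNRD1 also passed without FTO siRNA 3 after removal of the trends, at 0.68 ± 0.10 and 0.77 ± 0.10.

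The mitochondrial pair did not pass in any of these fits. TXN2 was at 70.8, 67.2 and 69.5 CPM and 77.8, 73.5 and 47.3 CPM and TXNRD2 at 32.3, 34.6 and 43.95 CPM and 57.5, 44.7 and 40.5 CPM. With 6 libraries the 95% interval of the log2 fold change was -0.51 to 0.38 for TXN2 and -0.07 to 0.79 for TXNRD2. SRXN1 was listed at 3.74, 2.74 and 1.81 CPM and 2.23, 3.83 and 1.43 CPM, with an interval of -1.09 to 0.78. Its longest transcript has 2698 bases, and its exons share 2292 bases on the same strand with AL121758.1, a gene with 9 counts in the controls together and 13 after FTO siRNA, and how reads in such overlaps were counted is not given in the sources used here, so the level of SRXN1 is uncertain.

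Peroxiredoxins are abundant peroxidases that use a cysteine and are recharged by thioredoxin, or for PRDX6 by glutathione; PRDX1, PRDX2 and PRDX6 are cytosolic, PRDX3 mitochondrial, PRDX4 of the endoplasmic reticulum and PRDX5 in several compartments. None of the 6 passed with 6 libraries, 3 were above 0 and 3 below, and the median log2 fold change was 0.0089. PRDX4 was at 154, 167 and 159 CPM in the controls and 282, 222 and 169.8 CPM after FTO siRNA, and PRDX5 at 179, 171 and 174 CPM and 256, 193 and 188 CPM. In both the groups were apart, with FTO siRNA 3 just above the highest control. PRDX4 came to 0.49 ± 0.19 (adjusted p = 0.139) and to 0.63 ± 0.12 without FTO siRNA 3 (adjusted p = 0.00538).

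PRDX1 had one of the widest spreads after FTO siRNA, at 839, 658 and 293 CPM against 519, 601 and 550.4 CPM in the controls. Its log2 fold change was 0.10 ± 0.33 with 6 libraries (adjusted p = 0.877) and 0.40 ± 0.13 without FTO siRNA 3 (adjusted p = 0.0439; not called with the trends removed). PRDX1 shares 379 exon bases with MMACHC on the opposite strand, which had 1169 counts in the controls together and 765 after FTO siRNA. PRDX3 was the gene whose FTO siRNA values all lay below the controls, at 213, 184 and 161 CPM against 216, 251 and 222 CPM. Its log2 fold change of -0.30 ± 0.16 did not pass (adjusted p = 0.246; 0.151 without FTO siRNA 3, and 0.0361 there with the trends removed). PRDX2 (89.02, 87.4 and 87.8 CPM and 96.6, 74.7 and 78.5 CPM) and PRDX6 (239, 253 and 233 CPM and 264, 230.4 and 174 CPM) had overlapping groups, and their 95% intervals were -0.41 to 0.25 and -0.52 to 0.28.

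Glutathione is made by glutamate-cysteine ligase, with its catalytic subunit GCLC and its modifier subunit GCLM, and is kept reduced by glutathione reductase (GSR). GCLC was at 81.7, 94.7 and 96.5 CPM in the controls and 132, 144 and 75.7 CPM after FTO siRNA, GCLM at 101, 115 and 110.2 CPM and 138, 141 and 66.6 CPM, and GSR at 382, 407 and 401 CPM and 428, 465 and 229.8 CPM. All 3 had FTO siRNA 1 and 2 above and FTO siRNA 3 below every control. None passed with 6 libraries (adjusted p = 0.341, 0.865 and 0.862). Without FTO siRNA 3, GCLC came to 0.58 ± 0.12 and GCLM to 0.34 ± 0.11 (adjusted p = 0.00679 and 0.0398), and both also passed there with the trends removed (0.64 ± 0.10 and 0.58 ± 0.09). GSR did not pass (adjusted p = 0.33).

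NQO1 reduces quinones and is the textbook NRF2 target, BLVRA and BLVRB are biliverdin reductases, and SLC48A1 moves heme out of endosomes. NQO1 was at 1015, 947 and 883 CPM in the controls and at 1348, 1178 and 954 CPM after FTO siRNA, with FTO siRNA 3 inside the range of the controls. Its log2 fold change was 0.29 ± 0.19 (adjusted p = 0.37), and 0.39 ± 0.12 without FTO siRNA 3 (adjusted p = 0.038), where it also passed with the trends removed (0.33 ± 0.10). BLVRB was at 39.1, 43.8 and 38.8 CPM and 66.3, 49.97 and 49.1 CPM, groups that did not overlap. It came to 0.44 ± 0.16 (adjusted p = 0.12), and passed without FTO siRNA 3 (adjusted p = 0.0255; not with the trends removed). BLVRA (46.2, 38.7 and 31.4 CPM against 30.7, 34.5 and 31.4 CPM in the controls) and SLC48A1 (25.8, 25.5 and 19.98 CPM against 20.1, 28.03 and 28.3 CPM) passed in neither fit.

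Of the regulators, none passed with 6 libraries. NFE2L2 was at 318, 399 and 421 CPM in the controls and 397, 349.5 and 446 CPM after FTO siRNA, overlapping groups with a 95% interval of -0.33 to 0.46 for the log2 fold change. Its exons share 1054 bases on the same strand with AC019080.1, which had 190 counts in the controls together and 254 after FTO siRNA. NFE2L1, a factor of the same family that drives proteasome genes, was at 234, 244 and 248 CPM and 226, 265 and 383 CPM, with FTO siRNA 3 well above the other 5 libraries. KEAP1 went the other way in that library, at 57.7, 58.6 and 65.9 CPM and 81.9, 72.7 and 32.6 CPM. Their log2 fold changes were 0.27 ± 0.20 and 0.04 ± 0.30 (adjusted p = 0.432 and 0.95), and without FTO siRNA 3 they were -0.01 ± 0.11 and 0.32 ± 0.12, neither called. OSGIN1, an NRF2 target that restrains growth, was at 49.2, 62.998 and 72.2 CPM in the controls and at 175, 138 and 40.5 CPM after FTO siRNA. FTO siRNA 1 and 2 were far above the controls and FTO siRNA 3 was below all of them, the widest range of the 34 genes among the FTO siRNA libraries on the log2 scale. It came to 0.94 ± 0.44 (adjusted p = 0.209) and, without FTO siRNA 3, to 1.32 ± 0.16 (adjusted p = 0.000841).

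To set genes side by side, levels were divided by the kb of all annotated exons of a gene. Exons that are not expressed count too, so levels of different genes compare only roughly. By this measure PRDX1 stood highest in the controls at 366 CPM per kb (range 341 to 395). TXN (305; 295 to 311) and NQO1 (291; 271 to 312) followed with overlapping ranges, and then GPX4 (259), PRDX5 (196) and GPX1 (144 CPM per kb), each apart from its neighbours. SOD1 and TXNRD1 could not be ordered (123 and 122 CPM per kb, overlapping ranges). At the lower end were GPX8 at 1.29, SRXN1 at 1.02 and AKR1C3 at 0.374 CPM per kb, the ranges of GPX8 and SRXN1 overlapping. Of the 3 genes that rose, GPX8 was thus among the 3 lowest levels of the set, and AKR1B10, at 3.98 CPM per kb, could not be ordered against TXNRD2 and SLC48A1, whose ranges overlap its own. SOD2 stood at 26.3 CPM per kb over 16.5 kb of annotated exon.

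**Figure D5:**
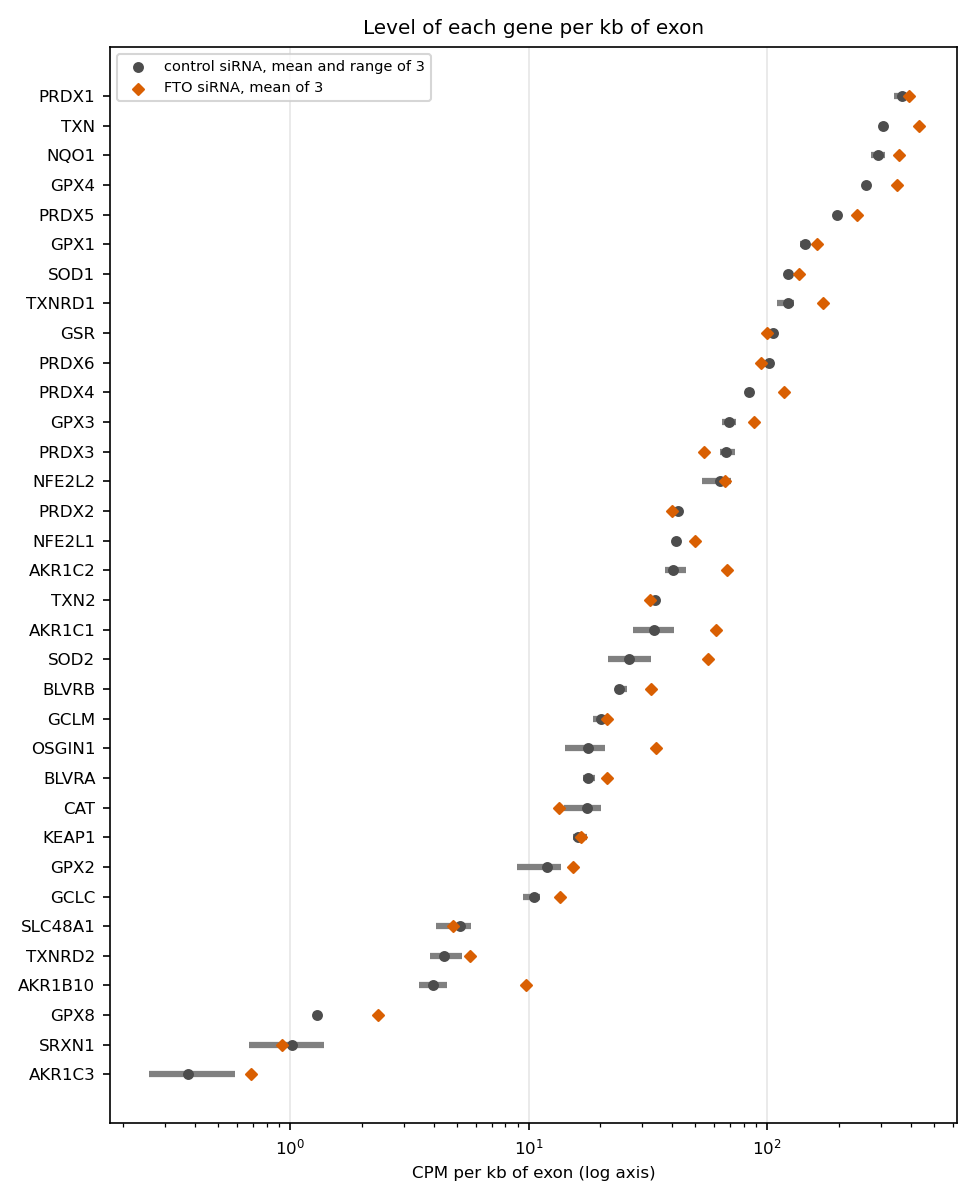
Level of each gene as CPM per kb of exon on a log axis, with mean and range of the 3 controls (grey) and the mean of the 3 FTO siRNA libraries (diamonds). Levels run from 0.374 (AKR1C3) to 366 CPM per kb (PRDX1) in the controls, and the diamonds of SOD2, AKR1B10 and GPX8 lie to the right of the control range.

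Other genes of the pathway, 62 listed and 61 tested, gave 9 higher and 1 lower; 51 did not pass. The share of higher calls was 14.8%, against 7.53% of all genes tested, that of lower calls 1.64%, against 3.83%, and the median log2 fold change 0.11 against 0.04. With length and GC trends removed, 4 of the 61 were higher, 6.56% against a background of 6.69%, and 3 were lower, 4.92% against 3.82%. MAFF and MAFK, small MAF proteins that pair with NRF2 or act without it, rose by 2.11 ± 0.31 and 1.54 ± 0.37 on the log2 scale (adjusted p = 0.00634 and 0.034). MAFF was at 15.7, 19.98 and 22.6 CPM in controls 1, 2 and 3 and 61.97, 61.03 and 129 CPM in FTO siRNA 1, 2 and 3, highest in FTO siRNA 3. HMOX1, the inducible heme oxygenase, was at 51.6, 52.2 and 46.7 CPM in the controls and 124, 104 and 74.1 CPM after FTO siRNA and rose by 1.00 ± 0.20 (adjusted p = 0.0157). SESN2, a stress-induced sestrin (1.28 ± 0.23), the extracellular dismutase SOD3 (1.74 ± 0.37) and the methionine sulfoxide reductase MSRB2 (0.69 ± 0.17) also rose (adjusted p = 0.012, 0.0227 and 0.034).

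SQSTM1, an autophagy receptor that binds KEAP1, SELENOW, a selenoprotein, and FTH1, the ferritin heavy chain, made up the 9, with adjusted p = 0.0375, 0.0394 and 0.0425. IDH1, which makes cytosolic NADPH, fell by 1.28 ± 0.22 in log2 units (adjusted p = 0.011), from 832, 816 and 632 CPM in the controls to 352, 359.9 and 228 CPM. Of these 10 genes MAFF passed in every fit with 1 library left out; IDH1 lost its call without control 1 or control 2, and each of the other 8 without any 1 of the controls (highest adjusted p 0.212). Without FTO siRNA 1, and likewise without FTO siRNA 2, 5 of the pathway genes were higher. SLC7A11, the cystine importer that feeds glutathione synthesis, and TXNIP, which binds thioredoxin, did not pass with 6 libraries (adjusted p = 0.202 and 0.0589). SLC7A11 was at 28.005, 29.4 and 23.7 CPM in the controls and 17.9, 28.2 and 231 CPM after FTO siRNA, and TXNIP at 6.21, 7.13 and 6.82 CPM and 14.7, 13.03 and 206 CPM. In both FTO siRNA 3 stood far above the other 5 libraries, the opposite of its place for TXN, GCLC and GCLM. For TXNIP all FTO siRNA values were above all controls, and it passed as higher with no filter on low counts (log2 fold change 3.48, adjusted p = 0.0259) and without FTO siRNA 1, 2 or 3 (adjusted p = 0.0468, 0.0434 and 0.00244; log2 fold change 1.02 in the last). For SLC7A11 the log2 fold change was 1.77 with 6 libraries and -0.25 without FTO siRNA 3, called in neither. SQSTM1, SELENOW, FTH1, SLC7A11 and TXNIP were named after their values were seen.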

How the data were processed

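The authors deposited raw counts per Ensembl gene, 1 table per library. Per the submitters' processing notes, TopHat2 2.0.11, TopHat, HTSeq, hg19 and GRCh37 were used, with no role or order stated; the sources used here do not give counting settings. Groups come from the labels. Symbols came from the reference gene table, and lengths, overlaps and 50-base shared words from GENCODE 29; coordinates are printed only for RefSeq promoters (GRCh38.p14). Every pair of libraries differed by more than counting noise (chi-square over its degrees of freedom 8.45 or more).

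Counts were filtered with filterByExpr, scaled by TMM and tested with edgeR 4.0.16 (R 4.3.3; glmQLFit with legacy=FALSE, glmQLFTest, intercept and group, two-sided), with Benjamini-Hochberg adjustment over all genes tested (15025 with 6 libraries) and a threshold of 0.05; every adjusted p is from this test unless another tool is named. A standard error is the log2 fold change over the square root of F. CPM are TMM-scaled, and ratios to the control mean use CPM + 0.5. The rule named all 34 genes and FTO, and of the other pathway genes past the threshold up to 6 per direction; 5 more were named after their values were seen. The genes and lists were chosen with earlier results of these data known. The steps were tested on simulated counts, and recovery there depended on the size of the change. At a simulated fold of 1.5 the test found 5.97% (67 genes altered). At a fold of 2 it found 61.2% (67 genes), and at a fold of 4 it found 92.4% (66 genes). A gene that did not pass may therefore still have changed by about 1.5-fold, and some changes of 2-fold or 4-fold were missed as well. Alternatives were other scalings and filters, DESeq2 1.42.0, limma-voom (limma 3.58.1), the older quasi-likelihood method, a replicate block, leaving out each library and adding the AKR1C counts; removal of length and GC trends (lowess, span 0.3) was added after the data were seen.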

Additional observations from a re-analysis of the deposited data

How the results depend on the processing

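The counts of calls depended on single libraries. With 1 library left out, the listed genes that passed as higher ranged from 0 (without control 1 or control 3) to 18 (without FTO siRNA 3), with 1 without control 2 or without FTO siRNA 1; none passed as lower. The other pathway genes ranged from 1 to 18 higher and from 0 to 8 lower, and all genes from 236 to 2430 higher and from 94 to 2152 lower. Without FTO siRNA 3 and with length and GC trends removed, 12 listed genes were higher and 2 lower, 18 and 9 other pathway genes, and 2216 and 1827 of all genes. With these trends removed from all 6 libraries, 4 other pathway genes were higher and 3 lower. DESeq2 gave 5 listed genes higher, 4 other pathway genes lower and 924 of all genes lower. Deviations of same-numbered libraries from their group means correlated at -0.15, -0.07 and -0.27. With 3 libraries a group, such values cannot show whether the replicate numbers pair the libraries. With the replicate block, 2 listed genes and 5 other pathway genes were higher, and 736 of all genes were higher and 305 lower. The cause of these moves was not tested. Under RLE, upper quartile or no composition factors, both other filters, limma-voom and the older quasi-likelihood method, 3 listed genes were higher and 0 lower. The spread between libraries (biological coefficient of variation 0.221) and 3 libraries a group limit the precision, and for genes of a few CPM, such as SRXN1 and AKR1C3, the depth does too.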
